A study of Mus musculus with 6 samples.

Results

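The 9 genes described here encode enzymes that make serine and that pass its carbon to folate. They are Phgdh, Psat1 and Psph for serine synthesis, Shmt1 and Mthfd1 for the cytosolic folate arm, and Shmt2, Mthfd2, Mthfd1l and Aldh1l2 for the mitochondrial folate arm. They were taken by symbol from a table of 13843 genes, and 9 of 9 had a row. They were chosen by their mRNA values in this same contrast, with Mthfd1l and Shmt2 known to be higher and Aldh1l2 lower in the Vhl knockouts 1 and 2. Their values are therefore given as a description, with fold changes and standard errors but with no p-value. Which of them passed a threshold is also stated, and nothing is read from it.

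PolyA RNA was sequenced from 1 mouse heart per library at stage E12.5 (C57BL/6), after atria and the valve region had been cut away. The Vhl knockout group, Vhl(flox/flox) / Nkx2.5(Cre/+), held 3 embryos, and the control group, Vhl(flox/flox) / Nkx2.5(+/+), held 3. All 6 embryos carried floxed Vhl on both alleles, so the groups differed in the Cre allele at Nkx2-5. Loss of Vhl and the Cre allele itself cannot be told apart, since every embryo with Cre also carried the floxed alleles. Cre under Nkx2-5 acts in heart muscle progenitors and their offspring, so other cells of the ventricle can keep Vhl. Per the labels, knockout 1 and control 1 shared litter 1, knockout 2 and control 2 shared litter 2, knockout 3 came from litter 4 and control 3 from litter 3. The study's own description speaks of 3 litters, so the litter numbers of the labels, on which every littermate comparison here rests, are not settled.

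The product of Vhl is the part of a ubiquitin ligase that binds hypoxia-inducible factors (HIF) and sends them to the proteasome when oxygen is present. Vhl mRNA itself was at 11.1 in knockout 1 and at 10.3 in knockout 2, while the library labelled knockout 3 had 34.5 and controls 1 to 3 had 33.7, 36.3 and 38.6. The library labelled knockout 3 thus went against its label and is shown apart. The main comparison sets knockouts 1 and 2 against the 3 controls (5 libraries). Values are CPM on effective library sizes, as the authors deposited them. The libraries held 9067805 to 12592902 reads over the genes of the table.

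In this pathway, Phgdh, Psat1 and Psph turn the glycolytic intermediate phosphoglycerate into serine in 3 steps. Serine hydroxymethyltransferase then moves a carbon from serine to folate and leaves glycine, through Shmt1 in the cytosol or Shmt2 in mitochondria. In mitochondria the carbon is oxidised by Mthfd2 and released as formate by Mthfd1l, or burnt to carbon dioxide by Aldh1l2 with a gain of NADPH. Formate enters the cytosolic pool through Mthfd1, from which purines, thymidylate and methyl groups are made.

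RefSeq promoter windows on GRCm38.p6 were at hand for 8 of the 9 genes. Aldh1l2, with lower values in knockouts 1 and 2, had none and is left out here. The 250 bases before the start are shown for the 2 mitochondrial genes with higher values in knockouts 1 and 2, Mthfd1l and Shmt2, and for their cytosolic counterparts Mthfd1 and Shmt1. Each is written 5′ to 3′ on the gene's strand. Capitals mark the core letters of HIF sites, ACGTG or GCGTG, read on either strand (CACGT or CACGC where the match lies on the other strand).
Mthfd1l, chr10:3972825-3973074 (plus strand): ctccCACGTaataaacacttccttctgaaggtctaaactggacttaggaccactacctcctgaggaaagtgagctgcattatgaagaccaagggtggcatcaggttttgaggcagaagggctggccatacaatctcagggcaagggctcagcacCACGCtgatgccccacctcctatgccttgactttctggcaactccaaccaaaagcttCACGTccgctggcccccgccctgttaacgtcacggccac
Shmt2, chr10:127522445-127522694 (minus strand): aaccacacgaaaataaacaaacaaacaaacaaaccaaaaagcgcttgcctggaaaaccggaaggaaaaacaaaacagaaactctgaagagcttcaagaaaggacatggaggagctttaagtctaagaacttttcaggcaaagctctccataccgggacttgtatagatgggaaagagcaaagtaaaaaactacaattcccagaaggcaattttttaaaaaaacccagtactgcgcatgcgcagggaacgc
Mthfd1, chr12:76254982-76255231 (plus strand): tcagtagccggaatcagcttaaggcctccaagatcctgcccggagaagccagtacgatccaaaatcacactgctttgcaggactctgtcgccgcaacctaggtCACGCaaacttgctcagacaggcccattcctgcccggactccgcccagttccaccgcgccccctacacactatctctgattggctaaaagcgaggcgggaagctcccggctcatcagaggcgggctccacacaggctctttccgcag
Shmt1, chr11:60811266-60811515 (minus strand): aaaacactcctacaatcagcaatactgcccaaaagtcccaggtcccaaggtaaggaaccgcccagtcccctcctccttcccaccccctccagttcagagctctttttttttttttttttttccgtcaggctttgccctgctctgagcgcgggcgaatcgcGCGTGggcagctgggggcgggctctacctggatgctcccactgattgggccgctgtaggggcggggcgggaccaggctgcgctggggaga
Mthfd1l held ACGTG at 2 places, with the leftmost base 246 and 39 bases before the start, and GCGTG once. Shmt2 held neither motif in its window, and Mthfd1 and Shmt1 each held GCGTG once. Of the 9 windows of these genes, 7 held GCGTG, those of Phgdh, Psat1 and Psph among them, and 2 held ACGTG, those of Mthfd1l and Psph. Among 32851 windows of all genes, 16.6% held ACGTG, 1.95% held it at 2 or more places that do not overlap, and 28.2% held GCGTG. The motif TGATGNAA, a core of the sites of the amino acid response factor ATF4, was in 0 of the 9 windows of these genes (Psat1 has 2 windows), beside 3.45% of all windows. These are letter matches, not binding sites.

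Fewer cells of a type and less RNA per cell cannot be told apart in these pieces of ventricle, and all values below are levels in the whole piece. The largest fold difference within the mitochondrial arm was that of Mthfd1l (ENSMUSG00000040675, chromosome 10, 3973118 to 4167081 on GRCm38), whose enzyme releases formate. Mthfd1l had values of 114 and 102 in knockouts 1 and 2, against 40.9, 35.9 and 38.5 in controls 1 to 3. Values of the knockouts lay clear above those of the controls, with a ratio of means of 2.81 and a log2 fold change of 1.47 ± 0.09 (SE). The difference between littermates was 1.46 in litter 1 and 1.48 in litter 2 on the log2 scale. The library labelled knockout 3 had 35.4, just below the lowest control.

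Shmt2 (ENSMUSG00000025403, chromosome 10, 127517123 to 127522444), the mitochondrial entry point of serine carbon, had values of 123 and 139 in knockouts 1 and 2, against 63.0, 67.7 and 58.4 in controls 1 to 3. The groups did not overlap, and the log2 fold change was 1.04 ± 0.09 (SE), or 0.95 in litter 1 and 1.02 in litter 2. The library labelled knockout 3, at 61.8, lay within the controls. Shmt2 ends tail to tail with Ndufa4l2, a HIF-induced mitochondrial gene on the opposite strand, and their exons share 32 bases, 1.03% of the exon length of Shmt2. Ndufa4l2, looked up after its position was seen, had 34.3 and 46.1 in knockouts 1 and 2, against 0.666, 2.60 and 1.68 in controls 1 to 3. The library preparation was not stated to mark strand, so reads within those 32 bases cannot be told apart, and their part in the Shmt2 value was not tested.

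Aldh1l2 (ENSMUSG00000020256, chromosome 10, 83487450 to 83534140), which oxidises formyl-folate to carbon dioxide in mitochondria, had lower values in the knockouts. It had 29.7 and 29.0 in knockouts 1 and 2, against 73.2, 57.4 and 75.6 in controls 1 to 3, a ratio of means of 0.427. The log2 fold change was -1.19 ± 0.12 (SE), with -1.27 in litter 1 and -0.96 in litter 2. The groups did not overlap, and the library labelled knockout 3, at 64.6, lay within the controls. Exons of Aldh1l2 share 1056 bases with D10Wsu102e on the opposite strand, which had 36.5 and 35.9 in knockouts 1 and 2 and 30.7, 33.8 and 31.05 in controls 1 to 3. The part of shared reads in the Aldh1l2 value was not tested. Mthfd1l, Shmt2 and Aldh1l2 all lie on chromosome 10, far apart from each other.

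Mthfd2, the mitochondrial dehydrogenase and cyclohydrolase that stands between Shmt2 and Mthfd1l, had 26.1 and 33.6 in knockouts 1 and 2, against 30.8, 32.1 and 28.6 in controls 1 to 3. The knockouts lay on either side of the controls, and the log2 fold change was -0.039 ± 0.12 (SE). The library labelled knockout 3 had 30.5. With 273 to 384 reads per library, counting alone gives an error of 5.10% to 6.05% of its value. The arm thus held 2 genes with higher values, 1 with lower values and 1 without a shared direction.

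**Figure D1:**
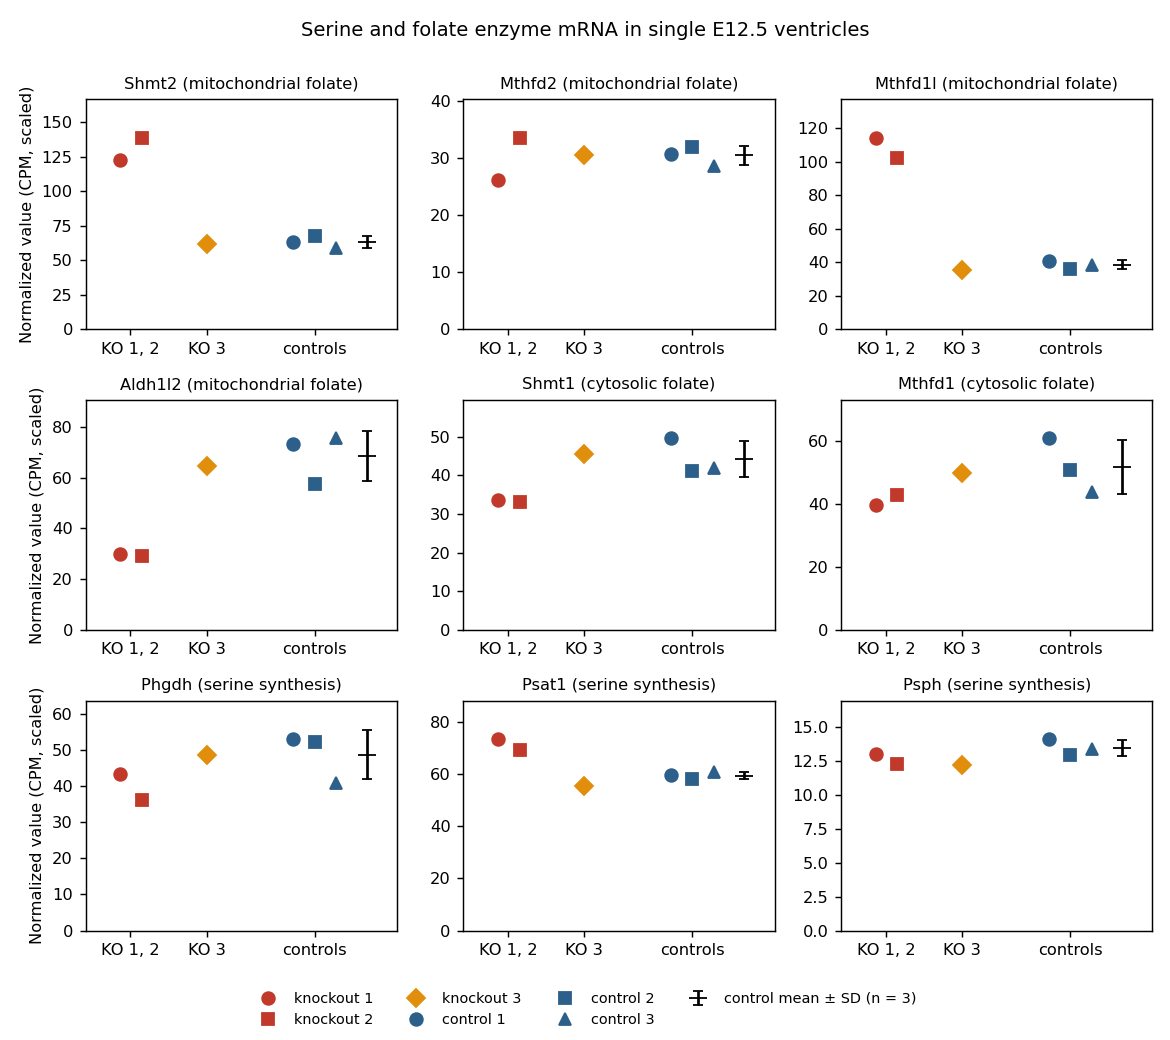
Normalized value (CPM on effective library sizes) of each enzyme in every library, with knockouts 1 and 2 in red at the left, the library labelled knockout 3 in orange, controls 1 to 3 in blue, and the control mean ± SD (n = 3) as a black bar. Mthfd1l and Shmt2 lie above and Aldh1l2 below all controls in knockouts 1 and 2, while the orange points lie within the control values or just below them.

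In the cytosolic arm the values ran lower in knockouts 1 and 2, by smaller steps. Shmt1 (chromosome 11, 60788104 to 60811718), the cytosolic counterpart of Shmt2, had 33.7 and 33.0 in knockouts 1 and 2, against 49.6, 41.0 and 41.96 in controls 1 to 3. Its groups did not overlap, with a log2 fold change of -0.39 ± 0.10 (SE), and the library labelled knockout 3 was at 45.4. Mthfd1 (chromosome 12, 76255298 to 76319803), which carries the 3 folate activities of the cytosol in 1 protein, had 39.8 and 42.8 in knockouts 1 and 2, against 60.8, 50.6 and 43.8 in controls 1 to 3. Knockout 2 lay close to control 3, and the log2 fold change of -0.31 ± 0.13 (SE) was -0.60 in litter 1 and -0.24 in litter 2. The library labelled knockout 3 had 49.7 for Mthfd1. Exons of Shmt1 share 184 bases with Smcr8 on the opposite strand, which had 38.6 and 39.7 in knockouts 1 and 2, against 42.3, 37.3 and 43.0 in controls 1 to 3.

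The 3 genes of serine synthesis did not share a direction. Phgdh, the dehydrogenase that commits phosphoglycerate to serine (chromosome 3, 98313170 to 98339990), had 43.4 and 36.3 in knockouts 1 and 2, against 53.1, 52.2 and 41.0 in controls 1 to 3. Control 3 lay between the knockouts, and the log2 fold change was -0.28 ± 0.13 (SE). Psat1, the transaminase of the middle step (chromosome 19, 15904678 to 15947337), had 73.3 and 69.1 in knockouts 1 and 2, against 59.4, 57.9 and 60.6 in controls 1 to 3. Its controls lay close together, its groups did not overlap, and the log2 fold change was 0.26 ± 0.07 (SE). Psph, the phosphatase of the last step, had 13.0 and 12.3 in knockouts 1 and 2, against 14.1, 12.9 and 13.3 in controls 1 to 3, with overlapping groups and a log2 fold change of -0.082 ± 0.12 (SE). In the library labelled knockout 3, Phgdh was at 48.7, Psat1 at 55.2 and Psph at 12.2. Psph shares 452 exon bases with Cct6a on the opposite strand, which had 217 and 191 in knockouts 1 and 2, against 195, 191 and 194 in controls 1 to 3.

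In the library labelled knockout 3, 6 of the 9 enzymes lay within the control range (56.1% of all genes) and 3 below it.

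Of the 9 enzymes, 2 (Mthfd1l and Shmt2) passed an adjusted p of 0.05 in limma upwards and 1 (Aldh1l2) downwards in the 5 libraries. Over all 13843 genes, 3.01% passed upwards and 1.24% downwards, and because the genes were chosen with this contrast known nothing is read from the count. Groups did not overlap upwards for 3 of the 9 (18.1% of all genes) and downwards for 3 (17% of all genes). When only the littermate pairs were used, and litter entered the fit as a block, 2 passed upwards (4.92% of all genes) and 4 downwards (3.21% of all genes), namely Aldh1l2, Shmt1, Mthfd1 and Phgdh. That fit leaves 1 residual degree of freedom and shares its knockouts and 2 controls with the other. With all 6 libraries as labelled, 0 of the 9 passed in limma, beside 0% of all genes. There, log2 fold changes were 0.94 ± 0.38 for Mthfd1l, 0.68 ± 0.27 for Shmt2 and -0.82 ± 0.28 for Aldh1l2 (SE). In that comparison limma gave 859 genes an unadjusted p under 0.05. By edgeR 0 genes (0%) were called and 907 had an unadjusted p under 0.05, while DESeq2 made 7 calls upwards (0.0506% of all genes) and 4 downwards (0.0289%).

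**Figure D2:**
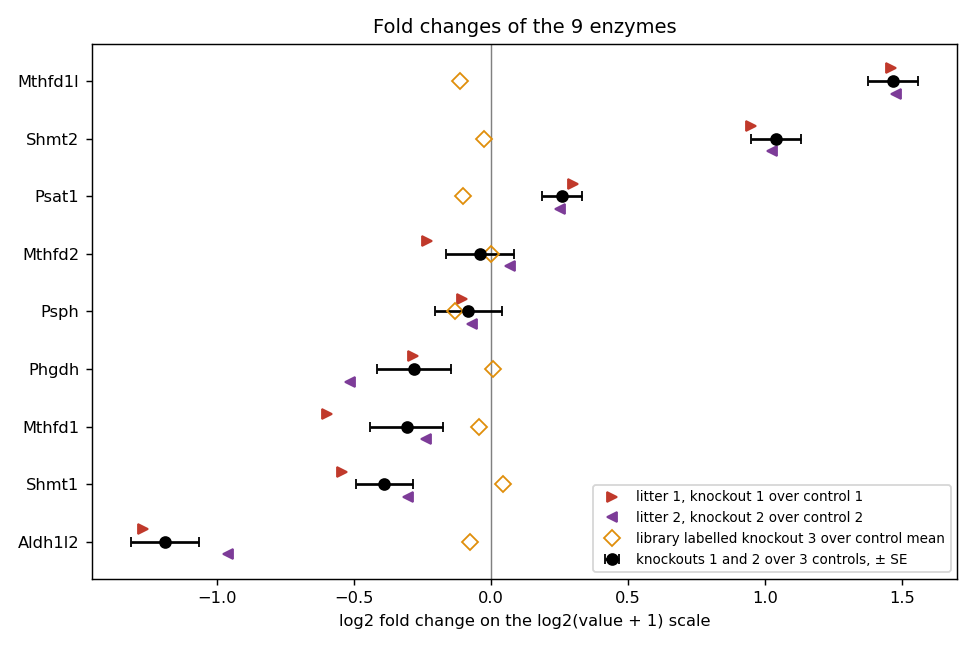
Log2 fold change of each enzyme on the log2(value + 1) scale, as black points ± SE for knockouts 1 and 2 over the 3 controls, triangles for the littermates of litter 1 and litter 2, and open diamonds for the library labelled knockout 3 over the control mean. The litters sit on the same side of 0 for each enzyme except Mthfd2, and the diamonds lie between -0.13 and 0.04.

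Levels of different genes were set side by side per kilobase of exon. In controls the order was Shmt2 at 20.3 ± 1.49, Phgdh at 19.6 ± 2.71, Psat1 at 13.9 ± 0.321, Mthfd1 at 11.6 ± 1.92, Shmt1 at 11.4 ± 1.21, Aldh1l2 at 9.16 ± 1.32, Mthfd2 at 8.75 ± 0.497, Mthfd1l at 8.67 ± 0.567 and Psph at 3.11 ± 0.137 per kilobase (SD, n = 3). Shmt2 and Phgdh differed by less than their spread, as did Mthfd1 and Shmt1, and as did Aldh1l2, Mthfd2 and Mthfd1l among themselves. In knockouts 1 and 2, Mthfd1l averaged 24.4 per kilobase and stood at rank 2 behind Shmt2 at 42.0, where in controls it was at rank 8. Aldh1l2 averaged 3.91 per kilobase in knockouts 1 and 2 and stood at rank 8 there, where in controls it was at rank 6. Mthfd2 averaged 8.57 per kilobase in knockouts 1 and 2. The order of Mthfd2 and Aldh1l2 depends on the length used, since with the longest transcript of each gene Mthfd2 (14.6 per kilobase in controls) stood above Aldh1l2 (11.4).

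Summed per kilobase, the 4 genes of the mitochondrial arm came to 76.7 and 81.2 in knockouts 1 and 2, with 45.2 in the library labelled knockout 3, against 48.1, 46.7 and 45.8 in controls 1 to 3. The 2 genes of the cytosolic arm came to 17.6 and 18.1 in knockouts 1 and 2, with 22.9 in the library labelled knockout 3, against 26.5, 21.96 and 20.7 in controls 1 to 3. The 3 genes of serine synthesis came to 37.7 and 33.7 in knockouts 1 and 2, with 35.4 in the library labelled knockout 3, against 38.6, 37.6 and 33.8 in controls 1 to 3. The mitochondrial sum was thus 1.68 times and the cytosolic sum 0.776 times its control mean in knockouts 1 and 2, while the serine sum was at 0.973 times.

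The balance of the arms was also given within each library, where scaling between libraries drops out. For the mitochondrial over the cytosolic sum, the log2 ratio was 2.12 in knockout 1, 2.16 in knockout 2 and 0.98 in the library labelled knockout 3, against 0.86, 1.09 and 1.15 in controls 1 to 3. For the paired enzymes Shmt2 and Shmt1 the log2 ratio per kilobase was 2.18 and 2.39 in knockouts 1 and 2, against 0.67, 1.04 and 0.80 in controls 1 to 3. For Mthfd1l over Mthfd1 it was 1.53 and 1.26 in knockouts 1 and 2, against -0.57, -0.49 and -0.19 in controls 1 to 3. In the library labelled knockout 3 these 2 ratios were 0.77 and -0.49. Mthfd1l was thus the more abundant of its pair in knockouts 1 and 2, and the less abundant in the controls and the library labelled knockout 3. Within the mitochondrial arm, Mthfd1l made up 33.6% and 28.3% in knockouts 1 and 2, against 19.2%, 17.3% and 18.97% in controls 1 to 3. Aldh1l2 made up 5.17% and 4.76% in knockouts 1 and 2, against 20.3%, 16.4% and 22.03% in controls 1 to 3. In the library labelled knockout 3, Mthfd1l made up 17.7% and Aldh1l2 19.0%. These ratios rest on the same contrast as the choice of genes and were not tested.

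**Figure D3:**
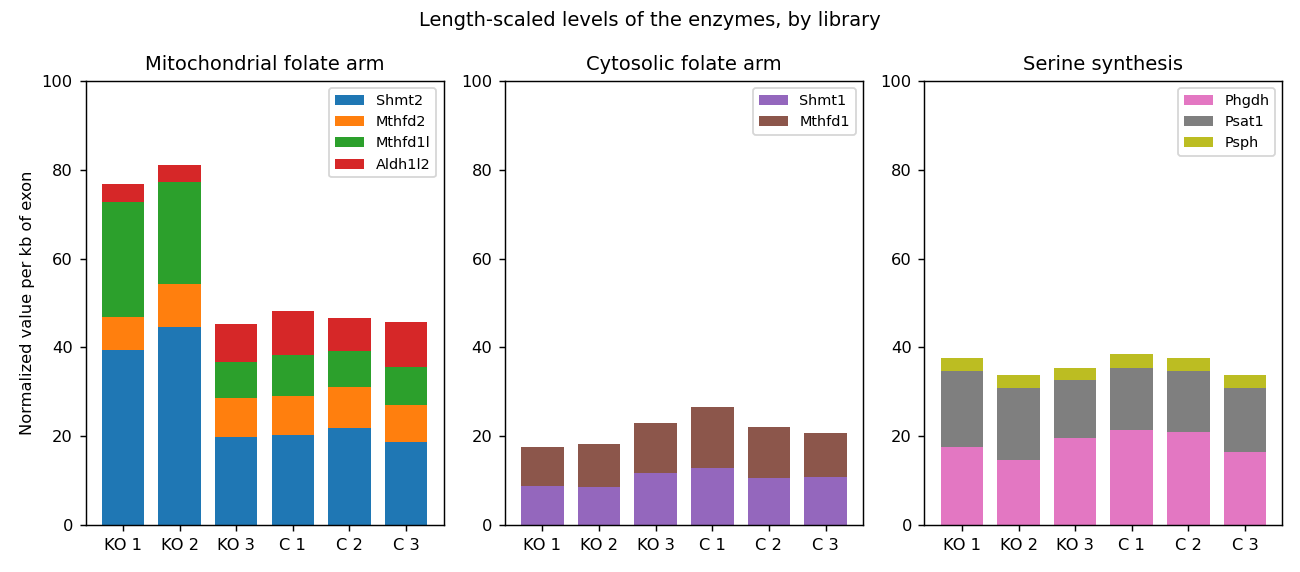
Stacked normalized values per kilobase of exon for the 3 branches, by library, with knockouts 1 to 3 (KO 1 to KO 3) left of controls 1 to 3 (C 1 to C 3). The mitochondrial bars reach 76.7 and 81.2 in knockouts 1 and 2, but at most 48.1 in the other 4 libraries, and their red Aldh1l2 segment is smaller.

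Genes around the 9 enzymes were taken from 7 lists of transport, folate, glycine, methionine, purine, amino acid response and replication genes. Of 112 listed genes 99 were tested, and in the 5 libraries 4 rose (4.04%, beside 3.01% of all genes) and 0 fell (beside 1.24%) at an adjusted p under 0.05 in limma. The median log2 fold change over the 99 was -0.03, beside -0.01 over all genes. Unadjusted limma p-values were under 0.05 for 14 in the higher and 7 in the lower direction. No share over all genes stands beside those counts, so nothing is read from them. Of the 99, edgeR called 3 higher and 0 lower (beside 2.94% and 1.18% of all genes), and DESeq2 called 5 higher and 2 lower (beside 4.02% and 2.01%). The 3 genes of edgeR were Eif4ebp1, Sars and Impdh1, the last at an adjusted p of 0.042, while Slc38a2 (0.053) and Gldc (0.058) missed the threshold there. Between littermates 4 rose and 4 fell in limma (beside 4.92% and 3.21% of all genes). Without any single library other than control 1, 0 of the 99 rose, and without control 1 it was 1, Slc38a2.

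Among 9 tested genes of serine transport and breakdown, 1 rose (beside 3.01% of all genes). It was Slc38a2, a transporter of small neutral amino acids including serine, which had 478 and 438 in knockouts 1 and 2, with 321 in the library labelled knockout 3, against 376, 347 and 335 in controls 1 to 3 (log2 fold change 0.38 ± 0.08, limma adjusted p = 0.047). The knockouts lay above all controls. Sfxn3, a sideroflexin of the inner mitochondrial membrane, had 18.6 and 21.6 in knockouts 1 and 2, against 28.6, 29.7 and 26.2 in controls 1 to 3 (limma adjusted p = 0.064). It fell between littermates (limma adjusted p = 0.020), and was at 21.9 in the library labelled knockout 3.

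Among 7 tested genes of glycine cleavage and breakdown, 1 rose (beside 3.01% of all genes), the only 1 with a log2 fold change above 0 (median of the list -0.096). It was Gldc, the decarboxylase of the mitochondrial glycine cleavage system, which feeds a further carbon into the same mitochondrial folate pool. Gldc had 12.0 and 12.53 in knockouts 1 and 2, with 6.41 in the library labelled knockout 3, against 7.54, 5.79 and 7.66 in controls 1 to 3 (log2 fold change 0.74 ± 0.16, limma adjusted p = 0.049). Its partners Gcsh, at 39.7 and 36.8 in knockouts 1 and 2 and at 39.4, 39.3 and 42.7 in controls 1 to 3, and Dld did not pass in the 5 libraries, and Dld fell between littermates (limma adjusted p = 0.027).

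None of the 15 other folate genes passed in limma, with a median log2 fold change of 0.17. Mthfd2l, the second mitochondrial dehydrogenase and cyclohydrolase, had 15.2 and 13.4 in knockouts 1 and 2, against 16.3, 14.3 and 16.7 in controls 1 to 3 (limma adjusted p = 0.67). Aldh1l1, the cytosolic counterpart of Aldh1l2, was among the lowest genes kept in the table, at 0.970 and 2.10 in knockouts 1 and 2, against 1.11, 0.923 and 1.05 in controls 1 to 3 (limma adjusted p = 0.65). The smallest p-values of the list were those of Ftcd, a formiminotransferase, with 8.81 and 7.10 in knockouts 1 and 2, against 4.55, 5.45 and 3.57 in controls 1 to 3 (log2 fold change 0.70 ± 0.20, limma adjusted p = 0.11), and of thymidylate synthase, Tyms, with 60.9 and 58.8 in knockouts 1 and 2, against 54.4, 52.1 and 50.2 in controls 1 to 3 (limma adjusted p = 0.24).

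Purines and methyl groups are made with folate-bound carbon. In purine synthesis 0 of 13 genes passed in limma (median log2 fold change -0.10). Impdh1, an enzyme of guanine nucleotide synthesis, had 42.4 and 42.1 in knockouts 1 and 2, against 33.8, 31.8 and 31.7 in controls 1 to 3 (limma adjusted p = 0.055). Adssl1, the muscle adenylosuccinate synthase, had 44.7 and 39.3 in knockouts 1 and 2, against 67.2, 57.6 and 50.6 in controls 1 to 3 (limma adjusted p = 0.099), and between littermates Adssl1 (0.0029) and Prps2 (0.021) fell. In the methionine cycle and transsulfuration 0 of 14 genes passed in limma. The smallest p-values there were those of methionine synthase, Mtr, with 41.5 and 42.2 in knockouts 1 and 2, against 54.7, 49.9 and 47.4 in controls 1 to 3 (limma adjusted p = 0.16), and of Mat2b, a subunit of the S-adenosylmethionine synthase, with 100.4 and 87.8 in knockouts 1 and 2, against 78.8, 86.6 and 88.6 in controls 1 to 3 (limma adjusted p = 0.45). In DNA replication and proliferation 0 of 17 genes passed in limma, and 3 had a log2 fold change above 0. Groups did not overlap downwards for 6 of the 17 (17% of all genes) and upwards for 2 (18.1%). The summed level of the list was 3150 to 3283 in knockouts 1 and 2, against 3210 to 3481 in the controls. Cdk1, a kinase that drives mitosis, had 167 and 163 in knockouts 1 and 2, against 140.01, 133 and 141 in controls 1 to 3 (limma adjusted p = 0.082), and the ribonucleotide reductase subunit Rrm2 had 142 and 185 in knockouts 1 and 2, against 230.3, 199 and 221 in controls 1 to 3 (limma adjusted p = 0.11). DESeq2 called Cdk1 higher (adjusted p = 0.032) and Rrm2 lower (adjusted p = 0.031).

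Several enzymes of serine and mitochondrial folate metabolism are known targets of the transcription factor ATF4, and its response genes were therefore described beside them. Of 29 listed genes, Chac1, Slc7a11, Fgf21, Gdf15 and Nupr1 were not among the genes tested. Of 24 tested genes 2 rose (beside 3.01% of all genes) and 0 fell (beside 1.24%) in limma, with a median log2 fold change of -0.040. Eif4ebp1, a repressor of translation initiation, had 131 and 121 in knockouts 1 and 2, with 97.4 in the library labelled knockout 3, against 96.1, 96.2 and 89.8 in controls 1 to 3 (log2 fold change 0.41 ± 0.07, limma adjusted p = 0.023). Sars, the cytosolic seryl-tRNA synthetase, had 112 and 104 in knockouts 1 and 2, with 82.8 in the library labelled knockout 3, against 79.8, 83.7 and 85.2 in controls 1 to 3 (log2 fold change 0.38 ± 0.07, limma adjusted p = 0.033). Atf4 mRNA itself had 112 and 118 in knockouts 1 and 2, against 101, 106 and 97.3 in controls 1 to 3 (limma adjusted p = 0.25).

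**Figure D4:**
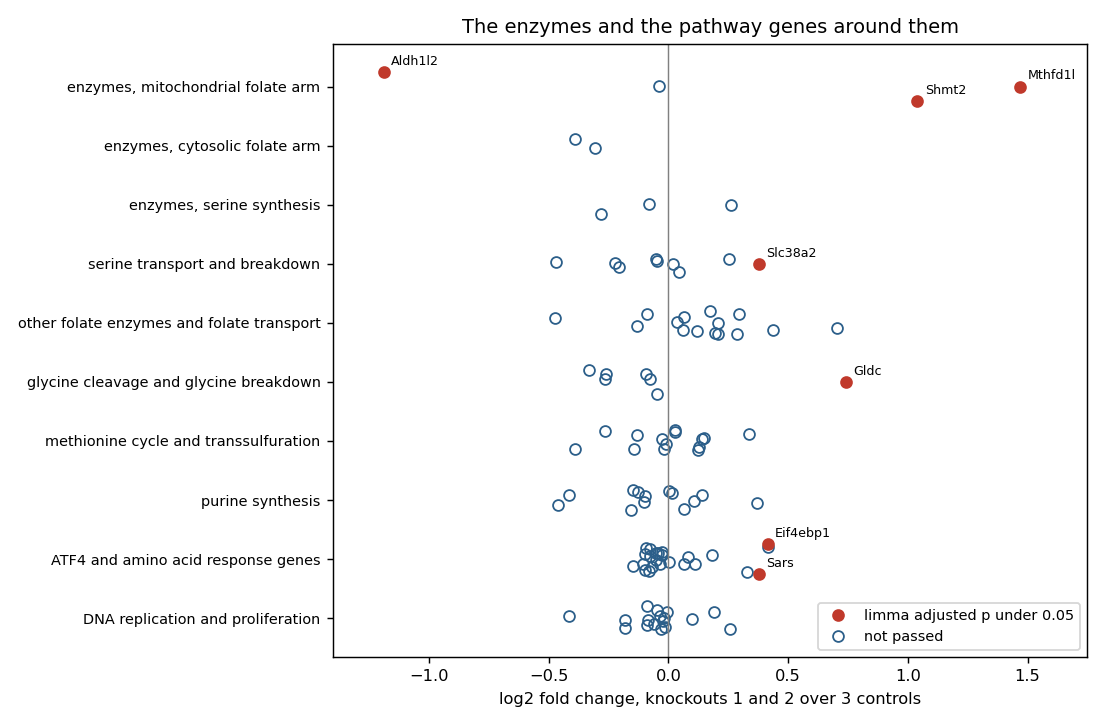
Log2 fold change of each tested gene in the 5 libraries, by list, with filled red points for genes at a limma adjusted p under 0.05 and open blue points for the others, jittered vertically. Mthfd1l, Shmt2 and Aldh1l2 in the top row, whose choice rested on this contrast, lie at 1.47, 1.04 and -1.19, while the 99 genes of the other lists lie between -0.47 and 0.74.

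Markers of the cell types that a ventricle piece can hold were read beside the enzymes. Of 6 epicardial markers 2 rose in limma, Wt1 and Upk1b (beside 3.01% of all genes). The summed level of the list was 419 to 457 over knockouts 1 and 2 and 256 to 342 over the controls. It was 298 in the library labelled knockout 3. All 6 epicardial markers had a log2 fold change above 0 (median 0.60), 5 of the 6 did not overlap between the groups (18.1% of all genes upwards), and 5 rose between littermates (4.92% of all genes). Wt1, a transcription factor of the epicardium, had 52.9 and 57.0 in knockouts 1 and 2, against 31.6, 28.9 and 37.1 in controls 1 to 3. Of 7 endothelial markers 1 rose, Emcn (beside 3.01% of all genes), and 5 did not overlap upwards between the groups (18.1% of all genes). The summed level of that list was 1289 to 1335 in knockouts 1 and 2 and 1144 to 1157 in controls. In the library labelled knockout 3 it was 1066, below all controls. Of 5 tested atrial markers 1 rose, Myl7 (beside 3.01% of all genes), and 2 did not overlap upwards (18.1% of all genes). The atrial sums were 6128 to 7568 in knockouts 1 and 2 and 4745 to 5643 in controls. The library labelled knockout 3 had an atrial sum of 4018, also below all controls. None of 8 cardiomyocyte, 7 erythroid and 5 tested macrophage markers passed in limma in the 5 libraries, and 0 of 6 hepatocyte markers were among the genes tested. Of the cardiomyocyte markers 2 did not overlap downwards (17% of all genes) and 0 upwards (18.1%). Between littermates 1 of them, Ryr2, fell (limma adjusted p = 0.034, beside 3.21% of all genes called lower). Among macrophage markers 0 had a log2 fold change above 0 (median -0.47), and their groups overlapped. No tested marker was at 0 in any library. The part of these cell types in the values of the 9 enzymes was not tested.

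The genes whose values followed those of the 3 enzymes most closely were found by Pearson's r of log2(value + 1) over the 6 libraries, among 9921 genes with a mean of at least 10. Nearest to Mthfd1l were Fam57a, Myo7a and Gpi1 (r = 0.998 each), nearest to Shmt2 were Kcnmb1, Lonp1 and Pla2g15 (r = 0.998, 0.996 and 0.995), and nearest to Aldh1l2 were Trp53inp2, Tnrc6b and Auh (r = 0.998, 0.995 and 0.993). The libraries fall into knockouts 1 and 2 on one side and the other 4 on the other, so likeness to an enzyme and membership of that split cannot be told apart. Lonp1, the mitochondrial matrix protease, had 212 and 224 in knockouts 1 and 2, with 136 in the library labelled knockout 3, against 135, 137 and 123 in controls 1 to 3. Auh, a mitochondrial hydratase of leucine breakdown, had 30.3 and 30.2 in knockouts 1 and 2, with 36.4 in the library labelled knockout 3, against 36.3, 35.2 and 36.8 in controls 1 to 3.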

How the data were processed

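Per the submitters' processing notes, CASAVA 1.8.2, cutadapt 1.3 and RSEM 1.2.3 were used with GRCm38, and no annotation release was found in the labels. The authors' deposited signal held whole reads per gene divided by 1 factor per library (100% of values within 0.01 reads), and the factors equalled edgeR's TMM effective library sizes, recomputed on these reads (ratio 1 in each library). In the table, each gene reached 1 CPM in 3 or more libraries; genes under that were not tested. Symbols, coordinates and exon lengths came from GENCODE M21 (13681 genes matched).

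The test was limma 3.58.1 with trend (R 4.3.3) on log2(value + 1), with Benjamini-Hochberg adjustment over all genes and a threshold of 0.05. It was tried on simulated data that held no litter differences, so that trial cannot tell how it fares with litters. The log2(value + 1) scale understates changes of low genes. edgeR 4.0.16 and DESeq2 1.42.0 on recovered reads were alternatives; edgeR called 407 genes higher and 163 lower, against 416 and 172 in limma. Leaving out the library labelled knockout 3 rests on its Vhl value. Litter pairing came from the labels. Deviations from group means correlated at 0.20 and 0.28 within litters 1 and 2, against 0.012 between knockout 3 and control 3 of different litters. The knockout mean included the library labelled knockout 3, so these deviations also hold its difference from knockouts 1 and 2. The main comparison did not use the pairing. Single embryos were compared, with 3 residual degrees of freedom in the 5 libraries. The limma p-values rest on the spread between embryos, moderated by the spread of the other genes. Differences between litters count as spread in that fit. Exons shared with genes on the other strand make values uncertain there. Named beyond the 9 enzymes and Vhl were up to 4 called genes of each list (otherwise the 2 of smallest p), Mthfd2l, Aldh1l1, Atf4 and the 3 nearest genes of the likeness search; Gcsh, Dld, Sfxn3, Prps2 and overlapping neighbours were added after their values were seen. The enzymes and lists were chosen with earlier results of these data known.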

Additional observations from a re-analysis of the deposited data

Results flagged for a closer look

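The litters moved opposite ways for Mthfd2, at -0.23 (knockout 1 over control 1, litter 1) and 0.068 (knockout 2 over control 2, litter 2) on the log2 scale; with 1 pair per litter the difference was not tested.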

How the results depend on the processing

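Fold changes of Mthfd1l, Shmt2 and Aldh1l2 kept their direction under all 12 alternatives and their call under 11. These genes were chosen by this contrast and the alternatives reuse its libraries, so nothing is read from that. With all 6 libraries as labelled, the limma count was 0 higher and 0 lower for the 9 enzymes, the other pathway genes and all genes. With litters 1 and 2 alone and the litter as a block, 681 of all genes were higher and 444 lower, 4 of the 9 enzymes were lower, and 4 pathway genes were lower. With litter as a block on all 6 libraries, 6 of the 9 enzymes were called, but knockout 3 and control 3 are each alone in their litter and carry no weight there, so that this repeats the littermate comparison. DESeq2 called 278 genes lower, 2 of them pathway genes, and with a mean value of at least 5, 1 pathway gene was lower. Leaving out 1 library at a time gave 146 to 297 genes higher and 44 to 90 lower, 0 to 1 pathway genes higher and 0 to 1 lower. Leaving out 1 library gave log2 fold changes of -0.22 (without knockout 2) to 0.14 (without knockout 1) for Mthfd2 and of -0.040 (without knockout 2) to 0.62 (without knockout 1) for Aldh1l1. The calls of Slc38a2, Gldc, Eif4ebp1 and Sars were lost without each single library (adjusted p 0.050 to 0.21), except Slc38a2 without control 1. Gldc also missed the threshold with a pseudocount of 0.25 (adjusted p = 0.051 in limma), with scaling by library totals (0.054 in limma) and in edgeR (0.058), as did Slc38a2 in edgeR (0.053). With the longest transcript as length, the median level of the 9 enzymes in controls was 15.5 in place of 11.1 per kilobase. The cause of these differences was not tested, except that fits with fewer libraries have less power by construction. With 1 knockout left, its spread was taken from the controls.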

Other observations

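Ahcy, which breaks down S-adenosylhomocysteine, followed the litters rather than the groups. Its values were 128 in knockout 1 and 138 in control 1 (litter 1), 39.0 in knockout 2 and 44.9 in control 2 (litter 2), 48.5 in the library labelled knockout 3 and 130.2 in control 3. Mri1, an enzyme of methionine salvage, ran the other way, with 7.35 in knockout 1 and 8.10 in control 1, 16.6 in knockout 2 and 16.0 in control 2, 14.2 in the library labelled knockout 3 and 7.97 in control 3. Both were singled out after their values were seen, and the split was not tested.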
